A study of Mus musculus with 12 samples.

Results

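The calcium pathway that ends in NFAT was followed through 9 of its genes in mouse hematopoietic stem and progenitor cells (HSPCs). The genes were taken by symbol from the 20792 genes of the deposited expression values, in CPM (reads per gene scaled to library size), and all 9 were found. The set comprises the calmodulin genes Calm2 and Calm3, the calcineurin genes Ppp3ca, Ppp3cb and Ppp3r1, the transcription factor genes Nfatc1, Nfatc2 and Nfatc3, and Rcan1, a feedback inhibitor of calcineurin. All 9 had enough reads to be tested in every comparison. HSPCs, which lack lineage markers and CD127 and carry both c-kit and Sca-1, were sorted out of bone marrow for bulk RNA sequencing in 4 groups of 3 libraries each. All mice were wild-type males that started the diet at 4 to 6 weeks of age. For 8 weeks the normal diet (ND) group ate chow containing 0.5% NaCl and drank tap water, whereas the high-salt diet (HSD) group had 8% NaCl in its chow and 1% in its water. The ND ICH and HSD ICH groups had the same diets and then an intracerebral hemorrhage (ICH) modeled by injection of blood into the brain, with HSPCs taken on day 7. After the hemorrhage every mouse ate ND, so the high salt had ended by the time HSPCs of the HSD ICH group were taken. Between the HSD and HSD ICH groups, ICH and the end of high salt therefore cannot be told apart. Each ND or HSD library was pooled from 3 animals, and the pooling of the ND ICH and HSD ICH libraries was not given in the sources used here.

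When calcium rises in a cell, it binds calmodulin, and calcium-loaded calmodulin switches on the phosphatase calcineurin, a dimer of a catalytic A subunit and a regulatory B subunit. Calcineurin removes phosphates from NFAT proteins in the cytoplasm, which then enter the nucleus and act on genes that often carry the letters GGAAA. Among the genes known from lymphocytes to follow this pathway are the nuclear receptors of the NR4A family, several cytokines, and RCAN1, which in turn binds calcineurin and restrains it.

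Calm2 and Calm3 encode the same protein from different DNA, and this decides whether their reads can be told apart. Their coding sequences of 450 bases translate to the same protein and differ at 78 bases. A stretch of 60 coding bases in exon 5 is shown for each because it holds 14 positions, in capitals, at which the genes differ. It lies at chr17:87435134-87435193 (minus strand) for Calm2 and chr7:16917133-16917192 (minus strand) for Calm3 in GRCm38.
Calm2: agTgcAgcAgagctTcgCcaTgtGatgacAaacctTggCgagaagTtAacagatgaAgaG
Calm3: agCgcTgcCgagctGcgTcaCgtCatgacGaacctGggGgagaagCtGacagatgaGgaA
The longest run of identical coding bases was 17. Of all 50-base stretches in annotated transcripts, 9.72% for Calm2 and 2.52% for Calm3 also occurred in another gene, more than any other Gm7308 for Calm2 and Gm5881 for Calm3, so a small part of these counts is uncertain. For Ppp3r1 the share was 13%, all with Wdr92, so that reads from the shared stretches cannot be assigned by sequence. No such stretch was found for Ppp3ca, Ppp3cb, Nfatc1, Nfatc2 or Rcan1.

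Rcan1 has more than one start site, and only one of its start regions held NFAT motif letters. RefSeq promoters, windows of 300 bases that lie mostly before a start (GRCm38.p6), were found for 6 of the 9 genes, Calm3, Ppp3cb, Ppp3r1, Nfatc2, Nfatc3 and Rcan1. Both Rcan1 promoters on the minus strand of chromosome 16 are shown, followed by the first Nfatc2 promoter, since Nfatc2 moved most among the 9 genes. Capitals mark GGAAA on either strand (GGAAA or TTTCC), the core letters that NFAT proteins bind, and TGACGTCA, the cAMP response element.
Rcan1 upstream start, chr16:92466120-92466419: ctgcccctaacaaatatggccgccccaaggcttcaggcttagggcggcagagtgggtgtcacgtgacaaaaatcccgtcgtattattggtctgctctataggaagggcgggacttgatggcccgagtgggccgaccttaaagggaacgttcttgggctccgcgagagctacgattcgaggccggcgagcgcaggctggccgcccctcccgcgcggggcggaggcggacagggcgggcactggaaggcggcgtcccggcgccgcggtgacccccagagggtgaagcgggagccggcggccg
Rcan1 internal start, chr16:92400029-92400328: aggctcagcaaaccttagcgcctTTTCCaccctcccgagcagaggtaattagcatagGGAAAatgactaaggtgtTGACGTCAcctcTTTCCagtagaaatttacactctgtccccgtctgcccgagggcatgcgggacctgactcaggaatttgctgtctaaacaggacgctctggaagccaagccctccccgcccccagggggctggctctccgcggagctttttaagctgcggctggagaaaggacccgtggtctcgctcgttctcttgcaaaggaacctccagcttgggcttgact
Nfatc2, chr2:168601608-168601907: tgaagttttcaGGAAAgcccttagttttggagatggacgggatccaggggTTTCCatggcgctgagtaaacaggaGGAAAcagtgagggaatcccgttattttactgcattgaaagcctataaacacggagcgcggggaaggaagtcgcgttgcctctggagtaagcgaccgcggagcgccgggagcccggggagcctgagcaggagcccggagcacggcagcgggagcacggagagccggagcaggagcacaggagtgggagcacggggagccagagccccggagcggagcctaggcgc
The internal Rcan1 start region held 3 GGAAA matches, of which 2 were also TGGAAA, beginning 227, 193 and 163 bases before the start, and 1 TGACGTCA beginning 175 bases before it. The upstream Rcan1 region held none of these letters. The first Nfatc2 region also held 3 GGAAA matches, 1 of them TGGAAA. The most GGAAA matches, 4, were in the Ppp3cb promoter, and the other member promoters held 0 or 1, so these letters are not particular to Rcan1 and Nfatc2. The promoter of Nr4a1 held none. Among all 32851 promoters of this length, 61.34% held GGAAA, 21.43% TGGAAA and 1.79% TGACGTCA on either strand, so a single GGAAA is common. The expression values were counted per gene, so transcripts from the 2 Rcan1 starts are joined in 1 value.

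Before the results, some libraries stood apart in ways that bear on them. The libraries held 8678304 to 27491973 reads in listed genes, with HSD ICH replicate 3 the deepest. Between 1393 and 1755 genes had no read in each library without ICH, against 2 to 29 in each library after ICH, so this difference moves with ICH and the 2 cannot be told apart. All 11 HSPC markers were detected in every group, with Kit, Cd34 and Flt3 highest, and their summed level was 1647 to 1790 CPM in ND, 1655 to 1824 CPM in HSD and 1580 to 1600 CPM in ND ICH libraries. It was lower in HSD ICH, at 1489, 1467 and 973 CPM in replicates 1, 2 and 3. The 10 macrophage markers were high in a pair of libraries, HSD replicate 2 (717 CPM in sum) and ND replicate 1 (383 CPM), and summed to between 24.0 and 112 CPM elsewhere. The 6 erythroid markers were highest in the same pair (268 CPM for HSD replicate 2, 328 CPM for ND replicate 1) and lay between 27.7 and 129.8 CPM elsewhere. The 6 of 7 mast cell and basophil markers that were listed summed to 68.8 to 98.9 CPM in HSD ICH and 35.1 to 64.3 CPM in the other groups. Of the T cell markers only 3 of 8 were listed, and they summed to 3.25 to 12.5 CPM.

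Every member was expressed in every library, and the order of the genes by mean level per kilobase was the same in all 4 groups. Compared per kilobase of exon, since longer transcripts collect more reads, the ND levels were highest for the calmodulin genes, at 144 ± 6.72 CPM per kb for Calm2 and 68.4 ± 3.88 CPM per kb for Calm3 (SD, n = 3). The regulatory calcineurin subunit Ppp3r1 followed at 15.98 ± 1.27 CPM per kb, then Nfatc1 at 11.7 ± 0.272 and Nfatc3 at 9.27 ± 0.130 CPM per kb. The catalytic subunits were alike, with Ppp3cb at 6.77 ± 0.154 and Ppp3ca at 6.42 ± 0.379 CPM per kb, a difference within their spread. Nfatc2 lay at 3.84 ± 0.758 and Rcan1 lowest at 1.52 ± 0.237 CPM per kb. These levels depend on the summed exon length of each gene and therefore on which transcripts the cells use.

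**Figure D1:**
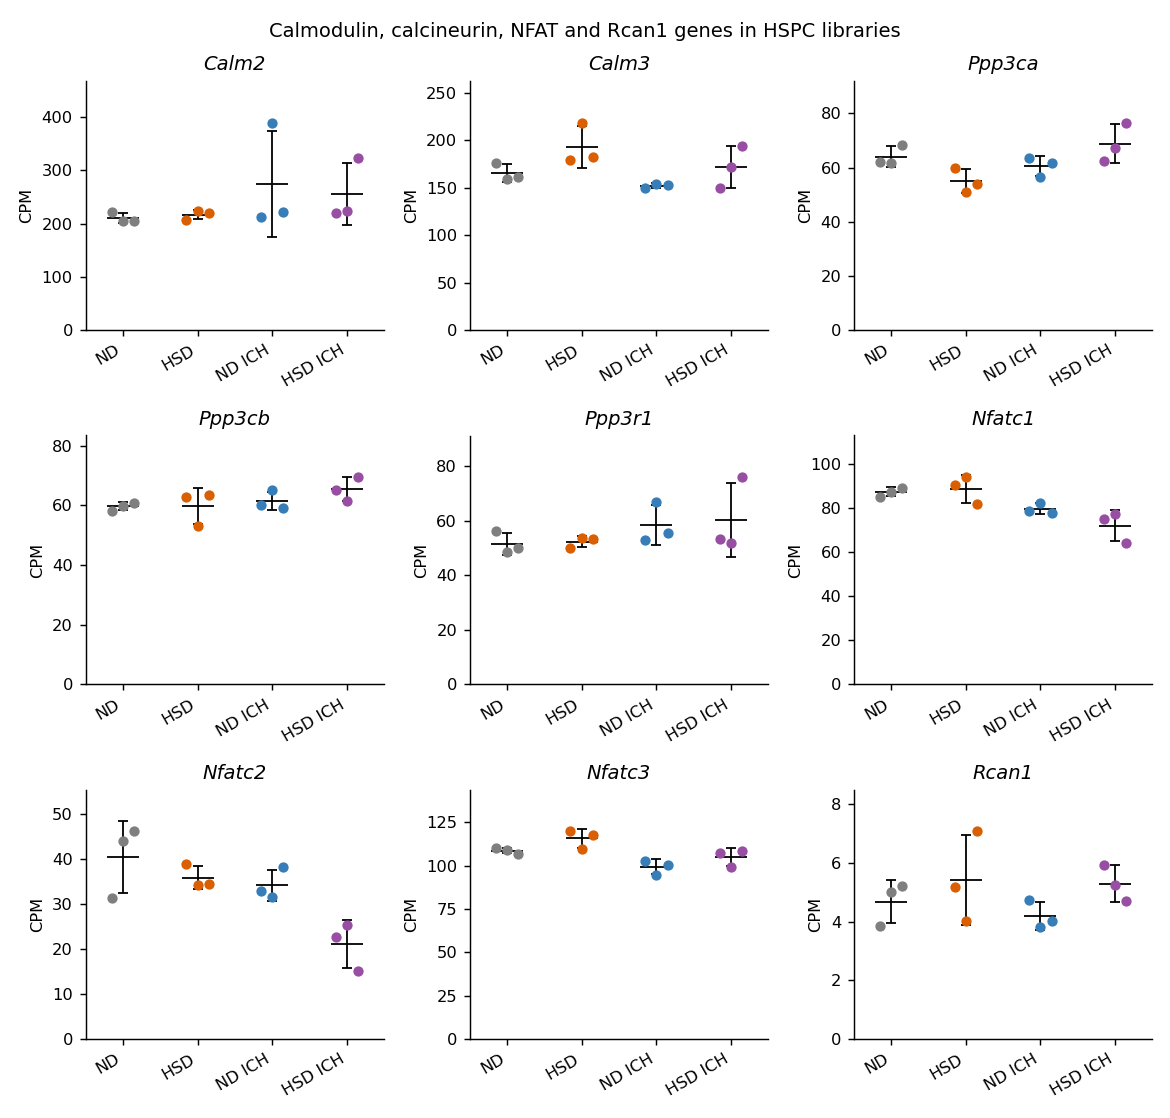
CPM (vertical axis, from 0) of each of the 9 genes in the 12 HSPC libraries by group. Points are libraries, horizontal bars group means and error bars SD of 3 libraries. Nfatc2 is lowest in the 3 HSD ICH libraries (15.1 to 25.4 CPM), which do not overlap with any other group. The HSD ICH libraries of Nfatc1 (64.0 to 77.2 CPM) also lie below all others, by less. Calm3, Ppp3ca, Ppp3cb and Nfatc3 separate between some groups, and Calm2, Ppp3r1 and Rcan1 overlap between all groups.

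Calm2 and Calm3, the calmodulin genes, differed little between groups apart from single libraries. Calm2 had 222, 205 and 205 CPM in ND libraries and 207, 224 and 219 CPM in HSD libraries. After ICH it had 212, 390.0 and 223 CPM on ND and 221, 224 and 323 CPM on HSD. ND ICH replicate 2 and HSD ICH replicate 3 were thus high, and all other libraries lay between 205 and 224 CPM. No comparison of Calm2 passed a test, and without ICH the log2 fold change of HSD against ND was 0.039, with a 95% interval from -0.12 to 0.19 (adjusted p = 0.939, limma). For ICH on ND it was 0.32, and 0.042 without ND ICH replicate 2.

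Calm3 was slightly higher on HSD without ICH. It had 176, 159 and 161 CPM in ND libraries and 179, 219 and 182 CPM in HSD libraries, without overlap between the diets, and HSD replicate 2 was the highest. The log2 fold change was 0.22 (SE 0.0877, adjusted p = 0.670, limma), a 1.16-fold difference that did not pass over all genes. Without HSD replicate 2, a library high in macrophage and erythroid genes, it was 0.12 (adjusted p = 0.774, limma), and without both that library and ND replicate 1 it was 0.17. The part of macrophage or erythroid RNA in this was not tested. After ICH, Calm3 had 149, 154 and 153 CPM on ND and 150.0, 172 and 193 CPM on HSD, with overlap (log2 fold change 0.17, and 0.078 without HSD ICH replicate 3).

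Ppp3ca, the alpha form of the catalytic subunit of calcineurin, was lower on HSD without ICH and not lower after ICH. It had 62.0, 61.7 and 68.4 CPM in ND libraries and 59.99, 51.0 and 54.0 CPM in HSD libraries. All 3 HSD libraries lay below all 3 ND libraries, with HSD replicate 1 close to the lowest ND libraries. The log2 fold change was -0.22 (SE 0.0858, adjusted p = 0.657, limma), which did not pass over all genes. Without HSD replicate 2, the lowest library and one high in macrophage and erythroid genes, it was -0.17 (adjusted p = 0.729, limma). Without ND replicate 3 it was also -0.17. The part of macrophage or erythroid RNA in this was not tested. After ICH, Ppp3ca had 63.4, 56.4 and 61.8 CPM on ND and 62.5, 67.3 and 76.7 CPM on HSD, so that the groups overlapped and HSD ICH replicate 3 was the highest of all libraries. The log2 fold change there was 0.18 (SE 0.113, adjusted p = 0.436, limma), and 0.0999 without HSD ICH replicate 3.

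Between HSD without ICH and HSD ICH, Ppp3ca was higher after ICH in every library, by 0.32 on the log2 scale (SE 0.111, adjusted p = 0.141, limma). On ND the corresponding value was -0.081 with overlapping groups. The diet effect after ICH exceeded that without ICH by 0.40 on the log2 scale (95% interval 0.10 to 0.69, adjusted p = 0.528, limma). For this difference 2 of 9 members reached an unadjusted p under 0.05, Ppp3ca and Nfatc2, where 8.35% of 20393 genes did. None of these Ppp3ca values passed an adjusted p of 0.05, and without HSD ICH replicate 3 the 0.32 fell to 0.24.

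Ppp3cb and Ppp3r1, the beta catalytic form and the regulatory subunit of calcineurin, showed no difference beyond the spread. Ppp3cb had 58.2 to 60.9 CPM in ND, 53.0 to 63.6 CPM in HSD, 59.2 to 65.0 CPM in ND ICH and 61.6 to 69.5 CPM in HSD ICH libraries. Its highest group mean was 1.10 times the lowest, the smallest such ratio of the 9 genes. The interval of HSD against ND without ICH ran from -0.19 to 0.19 on the log2 scale. Ppp3r1 had 48.4 to 56.2 CPM in ND and 50.2 to 53.6 CPM in HSD libraries. After ICH it had 53.1, 66.9 and 55.5 CPM on ND and 53.2, 51.8 and 76.1 CPM on HSD. Its 2 high libraries, ND ICH replicate 2 and HSD ICH replicate 3, were the same ones that were high in Calm2.

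Ppp3cc, the gamma catalytic form, which is not among the 9 genes, moved more than its paralogs. It had 8.22, 7.64 and 7.78 CPM in ND ICH and 5.19, 5.25 and 3.79 CPM in HSD ICH libraries, without overlap. The log2 fold change was -0.69 (SE 0.178, adjusted p = 0.242, limma). Without ICH the ND libraries had 5.60 to 7.11 CPM and the HSD libraries 5.22 to 9.22 CPM, with overlap. Of the summed CPM per kb of the 3 catalytic genes, Ppp3cc held 10.1 ± 2.18% in HSD ICH and 16.8 ± 0.422% in ND ICH, while Ppp3cb held 46.7 ± 1.44% and 44.5 ± 2.47% (SD, n = 3).

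Nfatc2 was the member that moved most, and its lowest values were those of HSD ICH. It had 31.4, 44.2 and 46.2 CPM in ND libraries, 38.9, 34.4 and 34.4 CPM in HSD libraries and 32.9, 31.5 and 38.2 CPM in ND ICH libraries. In HSD ICH libraries it had 22.7, 25.4 and 15.1 CPM, below each of the other 9 libraries. The highest group mean was 1.93 times the lowest, against 1.10 to 1.30 times for the other 8 genes. In bulk RNA, fewer cells that express a gene and less RNA per cell cannot be told apart.

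On HSD, Nfatc2 fell after ICH by 0.79 on the log2 scale (SE 0.181, adjusted p = 0.0334, limma), which is 0.580 of the level without ICH. This was the only member with an adjusted p under 0.05 in any comparison, 1 of 9, where 6.58% of the 18082 genes tested on HSD passed. By edgeR's quasi-likelihood test on recovered reads the adjusted p was 0.0434, and by DESeq2 it was 0.00673. The call did not depend on HSD ICH replicate 3, without which the log2 fold change was -0.57 (adjusted p = 0.0240, limma). It was lost without HSD replicate 1, 2 or 3 or HSD ICH replicate 1 or 2 (adjusted p = 0.0739 to 0.1501), where the log2 fold change lay between -0.93 and -0.73. The call was also lost when only genes above 10 CPM in at least 3 libraries were tested (adjusted p = 0.105, limma). There 44 of 9729 genes passed, a far smaller share than the 6.58%. The HSD ICH mice had also returned to ND, so ICH and the end of high salt cannot be told apart in this fall. On ND, where the diet stayed the same, the log2 fold change was -0.23, with overlapping groups (adjusted p = 0.346, limma). Without ND replicate 1, the ND library high in macrophage and erythroid genes and lowest in Nfatc2, it was -0.40 (adjusted p = 0.0391, limma).

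After ICH, Nfatc2 was also lower on HSD than on ND, without overlap. The log2 fold change was -0.71 (SE 0.186, adjusted p = 0.242, limma, and 0.0584 to 0.509 over the alternatives), and -0.50 without HSD ICH replicate 3. Without ICH it was -0.16, with a 95% interval from -0.44 to 0.13, and it depended on single ND libraries, at -0.33 without ND replicate 1 (adjusted p = 0.404, limma) and -0.056 without ND replicate 3. The difference between these diet effects was -0.56 (95% interval -1.10 to -0.018, adjusted p = 0.596, limma) and did not pass over all genes, and it was -0.34 without HSD ICH replicate 3. The HSPC marker sum was lowest in the same 3 libraries, and HSD ICH replicate 3 was the lowest in both, so the part of HSPC content in the result was not tested. Of the NFATc genes, Nfatc2 held 9.55 ± 1.96% of the summed CPM per kb in HSD ICH and 14.4 ± 1.34% in ND ICH (SD, n = 3), without overlap between the libraries.

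**Figure D2:**
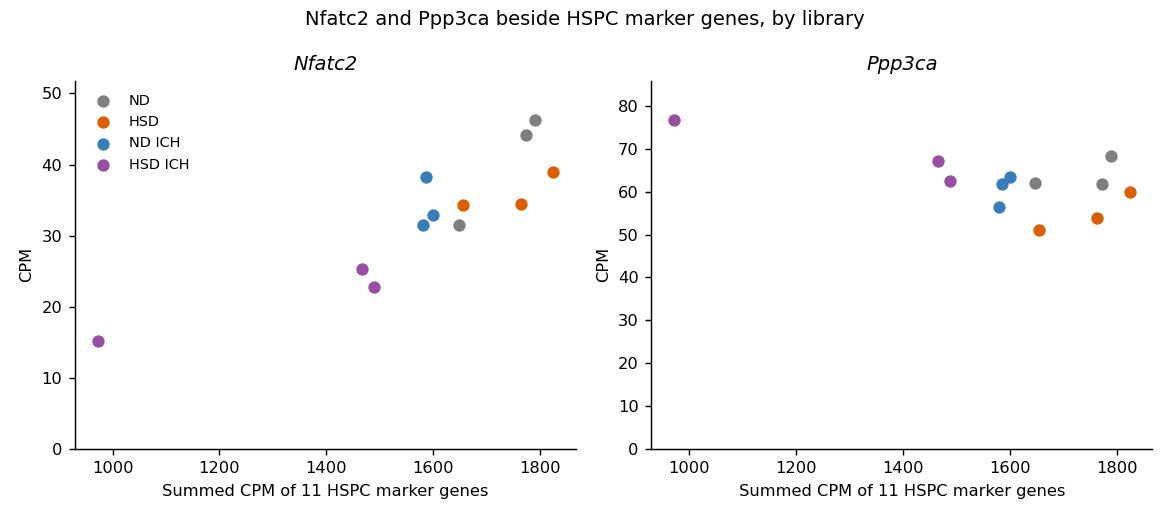
CPM of Nfatc2 (left) and Ppp3ca (right) on the vertical axes against the summed CPM of 11 HSPC marker genes on the horizontal axis, each point 1 of 12 libraries colored by group. The 3 HSD ICH libraries have the lowest marker sums (973 to 1489 CPM) and the lowest Nfatc2 values (15.1 to 25.4 CPM), and the library with the lowest sum has the highest Ppp3ca value (76.7 CPM).

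Nfatc1 and Nfatc3, the more abundant NFAT genes, moved less. Nfatc1 had 85.2, 87.4 and 89.2 CPM in ND and 90.2, 94.0 and 81.8 CPM in HSD libraries. After ICH it had 78.7, 82.3 and 77.7 CPM on ND and 74.9, 77.2 and 64.0 CPM on HSD. Both ICH groups therefore lay below their diet's libraries without ICH and did not overlap with them, and HSD ICH replicate 3 was the lowest. On HSD the log2 fold change of ICH against no ICH was -0.30 (SE 0.107, adjusted p = 0.148, limma, and 0.0406 in 1 fit of all 12 libraries), and on ND it was -0.13 (adjusted p = 0.266, limma). After ICH the HSD libraries lay below the ND libraries (log2 fold change -0.15, adjusted p = 0.502, limma), and the value was -0.065 without HSD ICH replicate 3.

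Nfatc3 had 107 to 109.9 CPM in ND, 109.5 to 119.7 CPM in HSD, 94.6 to 103 CPM in ND ICH and 99.2 to 109 CPM in HSD ICH libraries. ICH libraries lay below those without ICH on both diets, by log2 values of -0.13 on ND and -0.14 on HSD (adjusted p = 0.277 and 0.411, limma). The diets differed by 0.089 without ICH and 0.081 after ICH, with overlap. Nfatc4 was nearly absent, with 0 or 1 read in each library without ICH and 6 to 12 reads in each library after ICH, a step that goes with the number of genes without a read given above. Nfat5, which answers to osmotic stress and lacks the calcineurin docking of its relatives, had 171 to 222 CPM in ND and 155 to 194 CPM in HSD libraries, with overlap.

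**Figure D3:**
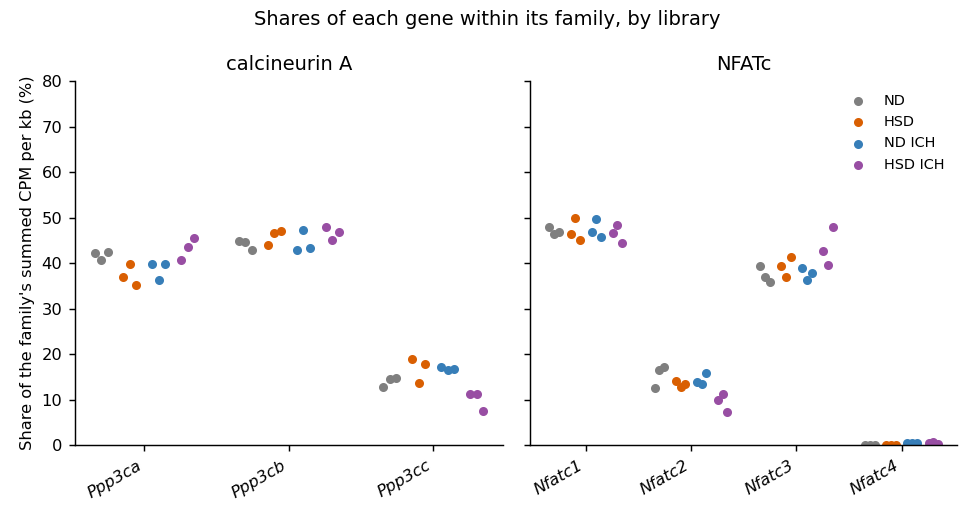
Share of each gene in the summed CPM per kb of its family (vertical axis, percent), for the catalytic calcineurin genes (left) and the NFATc genes (right), each point 1 of 3 libraries per group. Ppp3cb holds a larger mean share than Ppp3ca in every group (45.9% against 37.3% in HSD), and Nfatc2 and Ppp3cc have their lowest shares in HSD ICH (9.55% and 10.1% on average).

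Rcan1, whose protein restrains calcineurin and whose internal start is a known NFAT target, was low in all groups. It had 3.85, 4.996 and 5.20 CPM in ND, 5.19, 4.02 and 7.08 CPM in HSD, 4.73, 3.82 and 4.04 CPM in ND ICH, and 5.94, 5.25 and 4.70 CPM in HSD ICH libraries. All groups overlapped, and HSD replicate 3 was the highest library. Reads per library were 40 to 130, so counting error adds to the spread. The log2 fold change of HSD against ND was 0.17 without ICH (95% interval -0.30 to 0.64) and 0.30 after ICH (95% interval -0.10 to 0.71), and neither passed (adjusted p = 0.906 and 0.418, limma). On HSD, ICH and no ICH differed by -0.0057, with an interval from -0.52 to 0.51.

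The members as a set did not stand out from all genes in the diet comparisons. Without ICH, 1 of 9 was higher and 1 of 9 lower at an unadjusted p under 0.05, and the same 2 had groups without overlap. Of all 16787 genes tested, 6.93% reached that p, 12.8% had groups without overlap and 0.0774% passed an adjusted p. The median log2 fold change was 0.024 for the members and 0.017 for all genes. None of the 9 passed the study's threshold, an unadjusted p under 0.05 with a change of at least 2-fold, in any comparison. Of all genes, 0.125% passed it for the diets without ICH and 1.07% for the diets after ICH. For ICH on ND 11.1% did, and for ICH on HSD 6.35%. The study set this threshold on genes above 10 CPM in at least 3 samples. Here it was set on all genes tested, with fold changes on log2(CPM + 0.5), so these shares do not repeat the study's own counts. After ICH, 1 of 9, Nfatc2, was lower at an unadjusted p under 0.05, and Nfatc1 and Nfatc2 had groups without overlap, where 15.6% of 20079 genes reached that p and 23.4% had no overlap. No gene passed an adjusted p there by limma or by edgeR, with 3134 at an unadjusted p under 0.05, and 98 passed by DESeq2.

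**Figure D4:**
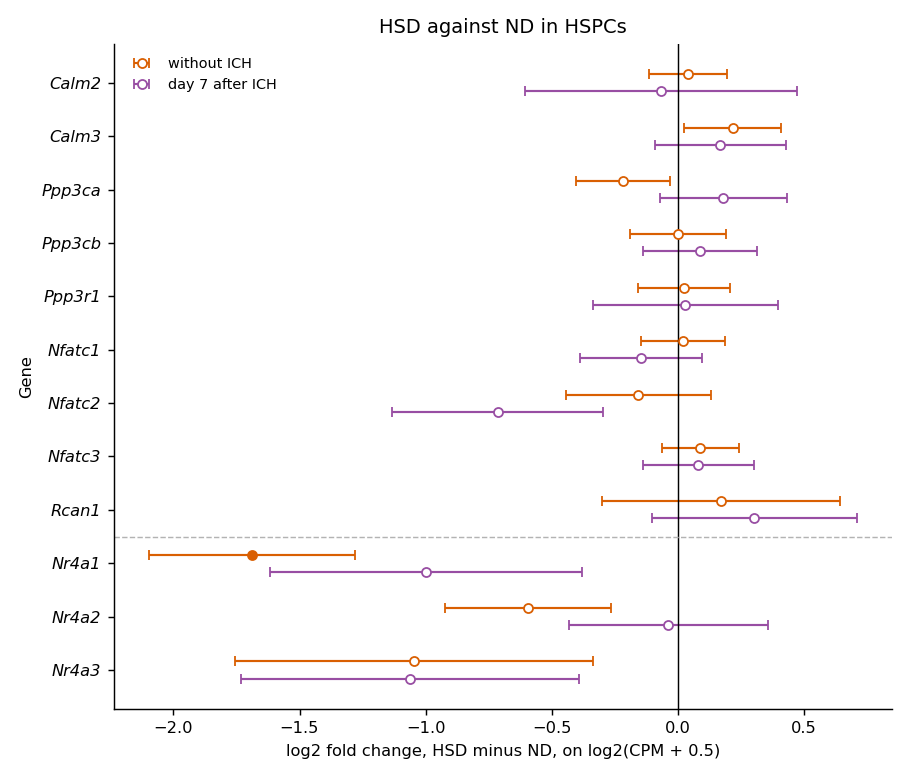
log2 fold change of HSD against ND (horizontal axis, on log2(CPM + 0.5)) with 95% intervals from limma for the 9 genes and the NR4A genes below the dashed line, without ICH and on day 7 after ICH. Filled points have an adjusted p under 0.05. Only Nr4a1 without ICH is filled, at -1.69, and Ppp3ca changes side between the comparisons, from -0.22 to 0.18.

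ICH was compared with no ICH on each diet, and these comparisons use libraries of the diet comparisons again. The comparison called ICH on HSD also holds the return from HSD to ND, which cannot be told apart from ICH. On ND, none of the 9 genes reached an unadjusted p under 0.05, where 28.4% of 19387 genes did and 16.7% passed an adjusted p, and 33.4% had groups without overlap. Calm3, Nfatc1 and Nfatc3 were lower without overlap, 3 of 9, where 14.3% of genes were lower without overlap. On HSD, 3 of 9 reached an unadjusted p under 0.05, Nfatc2 and Nfatc1 lower and Ppp3ca higher, where 21.5% of genes did, and 4 of 9 had groups without overlap, where 28.7% of genes did. Over all genes tested the median log2 fold change lay between -0.03 and 0.02 in each of the 5 comparisons, the difference of the diet effects included.

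**Figure D5:**
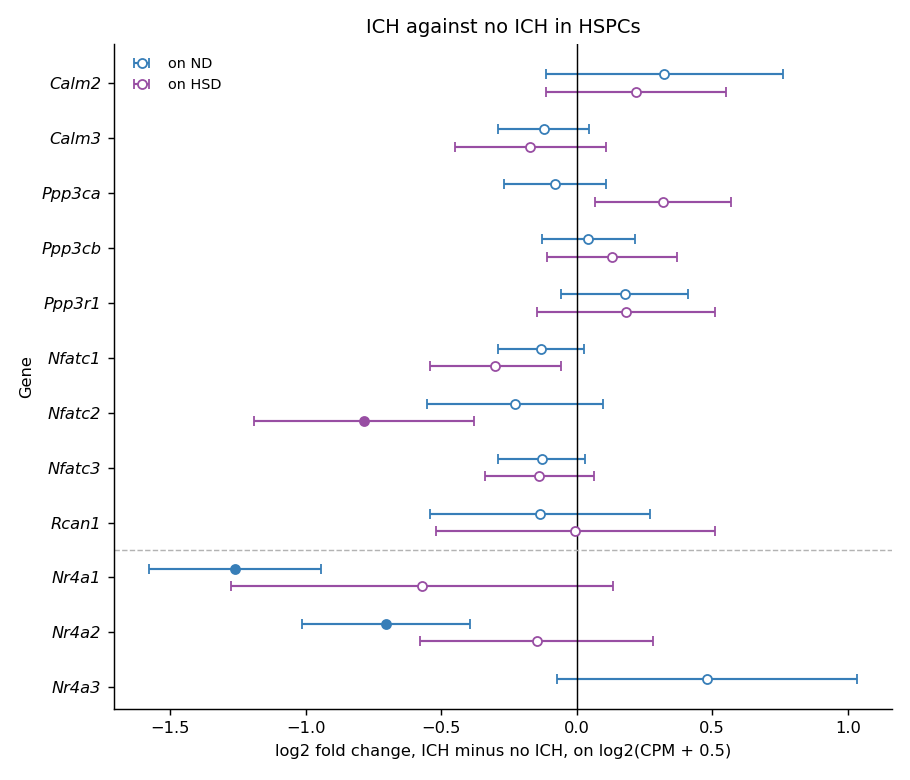
log2 fold change of ICH against no ICH (horizontal axis, on log2(CPM + 0.5)) with 95% intervals from limma for the 9 genes and the NR4A genes below the dashed line, on ND and on HSD. Filled points have an adjusted p under 0.05, which are Nfatc2 on HSD (-0.79) and Nr4a1 (-1.26) and Nr4a2 (-0.70) on ND, and Nr4a3 had too few reads to be tested on HSD.

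The NR4A genes, whose products are nuclear receptors made soon after a calcium signal, were followed as genes downstream of the pathway, and in both diet comparisons Nr4a1 had a larger fold change than any of the 9 genes. Nr4a1 had 12.3, 15.1 and 14.8 CPM in ND, 4.88, 4.42 and 2.96 CPM in HSD, 5.39, 6.03 and 5.29 CPM in ND ICH, and 3.76, 2.81 and 1.48 CPM in HSD ICH libraries. The ND libraries thus stood above all others, and the diets differed by a log2 fold change of -1.69 without ICH (adjusted p = 0.00526, limma) and of -0.9986 after ICH (adjusted p = 0.256, limma). In the fit of all 12 libraries the first of these had an adjusted p of 0.0568. Nr4a2 had 8.82 to 9.14 CPM in ND, 5.33 to 6.55 CPM in HSD, 5.14 to 5.65 CPM in ND ICH and 4.59 to 6.08 CPM in HSD ICH libraries. Nr4a3 was the lowest of the family in reads, with 12 to 30 in ND, 2 to 8 in HSD, 30 to 38 in ND ICH and 6 to 23 in HSD ICH libraries. It was lower on HSD without overlap both without ICH (log2 fold change -1.05, adjusted p = 0.520, limma) and after ICH (-1.06, adjusted p = 0.256, limma). In the comparison without ICH, Nr4a3 had enough reads to be tested through ND libraries alone. A lower value on HSD was thus favored in advance there. For ICH on ND, Nr4a3 was higher without overlap (0.48, adjusted p = 0.241, limma), where Nr4a1 and Nr4a2 were lower.

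Around the 9 genes, 72 further pathway genes of 83 on the lists were in the files, and most did not pass a test. Without ICH, 0 of 68 tested were higher and 6 lower on HSD at an unadjusted p under 0.05, where 3.65% of all genes were higher and 3.28% lower, and none passed an adjusted p. Of 5 other NFAT targets tested, 3 were lower at that p, and all 5 had a lower mean, as did 45.4% of all genes. The third was Irf4, a transcription factor of lymphocytes, with 11 to 13 reads on ND and 3 to 7 reads on HSD. Cd69, an early activation antigen, had 19.6, 22.8 and 19.7 CPM on ND and 15.6, 11.2 and 15.1 CPM on HSD (log2 fold change -0.56, adjusted p = 0.318, limma). Ptgs2, the inducible cyclooxygenase, had 13 to 20 reads per library on ND and 0 to 6 reads on HSD. Irf4 and Ptgs2 had enough reads to be tested through ND libraries alone, so a lower value on HSD was favored in advance. The counts of 3 and 6 lower genes above include both. Crem, a modulator of transcription through cAMP response elements, had 5.53 to 6.97 CPM on ND and 3.42 to 4.33 CPM on HSD (log2 fold change -0.64, adjusted p = 0.421, limma), and Camk4, a nuclear kinase that calmodulin activates, 1.96 to 2.98 and 0.904 to 2.01 CPM. None of the 17 genes of calcium entry and stores, among them Stim1 and Orai1, and none of the 7 tested regulators of calcineurin reached an unadjusted p under 0.05. Of the 14 genes of NFAT kinases and transport, 1 higher and 3 lower had groups without overlap. Of all 16787 genes, 1187 were higher and 966 lower without overlap, 12.8% together. Among the 14, only Lrrk2 reached that p, and it differed by -0.23 on the log2 scale (adjusted p = 0.718, limma).

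After ICH, 4 of 72 were higher and 9 lower on HSD at an unadjusted p under 0.05, where 5.42% of all genes were higher and 10.2% lower, and none passed an adjusted p. Cracr2b, a regulator of calcium entry through Orai channels, had 1.64, 1.13 and 1.54 CPM on ND and 3.48, 2.29 and 4.44 CPM on HSD (log2 fold change 0.98, adjusted p = 0.242, limma). Atp2a2, the pump that refills calcium stores, had 91.4 to 119 CPM on ND and 132 to 168 CPM on HSD (log2 fold change 0.45, adjusted p = 0.260, limma). Of 9 calmodulin-dependent kinase genes, 8 had a lower mean on HSD, as did 54.2% of all genes, and 3 were lower at an unadjusted p under 0.05. Camk1d among them had 24.2, 28.1 and 27.9 CPM on ND and 20.0, 17.4 and 10.2 CPM on HSD (log2 fold change -0.79, adjusted p = 0.256, limma), with HSD ICH replicate 3 lowest, as for Nfatc2. Mef2c, a transcription factor released by calcium signals, had 135 to 179 CPM on ND and 86.9 to 126 CPM on HSD (adjusted p = 0.281, limma). The same p was reached by Xpo1, the exportin that carries NFAT out of the nucleus, at a log2 value of 0.27, by Camk2d at -0.45 and by Irf4 at -0.61. Rcan2, a relative of Rcan1, had 11, 13 and 12 reads on ND and 3, 4 and 9 reads on HSD. It met the filter of 10 reads through ND libraries alone, so a lower value on HSD was favored in advance.

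Between ICH and no ICH on ND, 7 of 70 passed an adjusted p, 4 higher and 3 lower, where 13.5% of all genes were higher and 3.23% lower. Xpo1 fell from 195 to 197 CPM without ICH to 151 to 159 CPM after ICH, by 0.33 on the log2 scale (adjusted p = 0.00776, limma, lost in 4 of 16 alternatives). Hdac7, a deacetylase whose place in the cell depends on calcium signals in T cells, fell by 0.42 (adjusted p = 0.0223, limma, lost in 8 of 16 alternatives, with adjusted p up to 0.126), and Homer3, which binds NFAT in T cells, by 0.40 (adjusted p = 0.0155, limma). Homer2, its relative, rose from 17 to 19 reads to 33 to 50 reads per library (log2 fold change 0.86, adjusted p = 0.0131, limma). Il2ra, a subunit of the interleukin receptor that NFAT induces in T cells, rose from 1 to 2 reads to 11 to 26 reads, and Rcan2 from 1 to 6 reads to 11 to 13 reads. Irf4 rose by 0.64 on the log2 scale (adjusted p = 0.0349, limma) from 11 to 13 reads to 22 to 25 reads. Il2ra and Rcan2 met the filter of 10 reads through ICH libraries alone, so a higher value after ICH was favored in advance. Each of these rising genes had at least 1 read in every ND library, so they are not among the genes without a read there. Their rises go the same way as the smaller number of genes without a read after ICH. The part of that difference in them was not tested. At an unadjusted p under 0.05, 5 of 70 were higher and 15 lower, where 3515 of 19387 genes were higher and 1993 lower. Among those not past an adjusted p were the calcineurin inhibitor Cabin1, the calcium release channel Itpr3, Nfat5 and the kinase Camk1. The CREB coactivators Crtc1 and Crtc2 were also among them. These had log2 fold changes from -0.29 (Crtc2 and Itpr3) to -0.23 (Cabin1). Cracr2a, another regulator of Orai channels, was at 0.32. On HSD, 3 of 67 passed, 2 higher and 1 lower, where 5.31% of all genes were higher and 1.26% lower. These were Homer2 (9 to 10 reads without ICH and 27 to 57 after ICH), Cracr2b (0.724 to 1.51 CPM and 2.29 to 4.44 CPM) and Csnk1d, a kinase that returns NFAT to the cytoplasm, which fell by 0.38 on the log2 scale (adjusted p = 0.0445, limma). Camk1d (-0.83), Camkk1, a kinase that activates other calmodulin-dependent kinases (-0.72), Ppp3cc (-0.59), Hdac7 (-0.47), Crtc1 (-0.39), Saraf, a brake on calcium entry (-0.33), and Crtc2 (-0.32) had negative log2 fold changes at an unadjusted p under 0.05 only. In all, 6 of the 67 were higher and 16 lower at that p, where 2134 of 18082 genes were higher and 1759 lower. Besides Homer2 and Cracr2b the higher ones among the 67 were Camk2b, a calmodulin-dependent kinase (0.87, with overlap), Irf4 (0.65), Crem (0.57) and Lrrk2 (0.49). Irf4 had 3 to 7 reads on HSD and 10 to 18 after ICH, so it met the 10-read filter through ICH libraries alone. The 3 calls past an adjusted p on HSD were lost in many alternatives, the replicate block included. They were lost in 13 of 17 for Csnk1d and 9 of 16 each for Cracr2b and Homer2 (adjusted p up to 0.176, 0.184 and 0.203, limma). On ND the calls were lost in 8 of 15 alternatives for Irf4, 3 of 15 for Homer2 and 1 of 12 for Rcan2, and in none of 12 for Il2ra. Rcan2 and Il2ra could not be tested once any ND ICH library was left out, since they met the filter through these libraries alone. Their counts of 12 therefore lack these fits and do not show whether the calls depend on single ND ICH libraries.

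The genes whose levels followed Calm3, Ppp3ca and Rcan1 most closely over the 12 libraries were sought among 9627 genes with a mean of at least 10 CPM. For Calm3 they were Haus8 (Pearson r = 0.956), Stub1 (0.949) and Nudc (0.932). For Ppp3ca they were Slmap (0.901), Fosl2 (0.8802) and Arfgef1 (0.874), and for Rcan1 Csnk2a1 (0.902), Pou2f1 (0.885) and a gene without a symbol (0.883). These correlations describe 12 libraries that share groups, depth and scaling, and the highest of 9627 are high by choice.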

How the data were processed

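HSPC RNA was made into libraries with a stranded SMART-Seq kit. Alignment to mm10 was done by the authors in Rsubread. They counted reads per gene with featureCounts, whose use of strand is not given in the sources used here, and deposited CPM scaled by TMM with edgeR 3.24.3. Values were whole multiples of the CPM of 1 read to within 0.01 read, which gave reads per gene, less surely in HSD replicate 2, where 1 read is close to 0.1 CPM. Each comparison was a limma fit (version 3.58.1, R 4.3.3) of log2(CPM + 0.5) with a variance trend. A gene entered it when 3 or more of its libraries had 10 or more reads, and p-values were adjusted after Benjamini-Hochberg over all such genes. Fold changes are on that scale, which understates low genes. With 3 libraries per group, p-values measure only the spread between these libraries. Alternatives were edgeR 4.0.16, DESeq2 1.42.0, other pseudocounts, filters and scaling, a replicate block and leaving out libraries. The fits were also run on simulated counts, with the same set spread for all genes and no library that stood apart. These counts lack the library differences given above, so they do not show how such differences move the results. Exon lengths came from GENCODE and promoters from RefSeq. Named genes were all members, the NR4A genes and up to 2 genes per list and comparison with the smallest unadjusted p under 0.05. Nfatc4, Homer3, Stim1, Orai1, Irf4 without ICH, and Camk2b, Crem and Lrrk2 for ICH on HSD were named after their values were seen. Members, lists and rules were chosen with earlier results of these data known.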

Additional observations from a re-analysis of the deposited data

Results flagged for a closer look

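The diet effects without and after ICH were set against each other in 1 limma fit of 12 libraries. None of 20393 genes passed an adjusted p under 0.05 by limma, edgeR or DESeq2, and 1703 (8.35%) had an unadjusted p under 0.05. The results below reached only that p. The diet effect of Ppp3ca was higher after ICH by 0.40 on the log2 scale (adjusted p = 0.528, limma), from -0.22 without ICH to 0.18 after it, and by 0.32 without HSD ICH replicate 3. That of Nfatc2 differed by -0.56 (adjusted p = 0.596, limma), ranging from -0.70 to -0.34 without 1 library.

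Another 5 genes of the pathway had such differences. These were 0.56 for Nr4a2 (adjusted p = 0.550, limma), -0.87 for Ppp3cc (adjusted p = 0.528, limma) and 1.19 for Cracr2b (adjusted p = 0.524, limma). They were -0.63 for Camk1d (adjusted p = 0.586, limma) and 0.94 for Ptgs2 (adjusted p = 0.563, limma), the last with 0 to 20 reads per library. What lies behind these differences was not tested.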

How the results depend on the processing

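Of 778 member values under the alternatives, 728 kept their direction and side of the threshold. Another 40 changed sign, none of them past the threshold, and 7 lost and 3 gained an adjusted p under 0.05. The 7 belong to Nfatc2 for ICH on HSD, whose call was also lost with the filter of CPM above 10 (adjusted p = 0.105). The 3 are Nfatc2 for ICH on ND without ND replicate 1, alone or with HSD replicate 2, and Nfatc1 for ICH on HSD in 1 fit of 12 libraries. HSD replicate 2 is no part of ICH on ND, so both Nfatc2 entries are the same fit. Leaving out libraries of both diets repeats a fit in this way for ICH on HSD as well. All counts of alternatives include such repeats. Libraries with the same number had correlations of -0.19 to 0.09 after group means were removed. Libraries with different numbers were not compared in this way, so whether the numbers pair libraries cannot be told from these values. With a replicate block, no member's call changed, and 5 of 101 calls of named genes did. The pair of ND ICH replicate 2 and HSD ICH replicate 3 was left out together as an alternative chosen after seeing the data. Depth limits Rcan1 and genes with under 20 reads most.

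Counts of genes past an adjusted p moved more. For HSD against ND without ICH the count was 13, and 65 with DESeq2, 8 with no filter, 0 in 1 fit of 12 libraries, 91 without ND replicate 1 and HSD replicate 2 and 8 to 22 without 1 library. After ICH it was 0, and 98 with DESeq2, 319 in 1 fit and 90 without the pair. ICH on ND gave 3245, and 116 with the CPM filter, 264 to 2995 without 1 library and 3304 with the block. ICH on HSD gave 1189, and 2384 with no filter, 44 with the CPM filter, 2047 in 1 fit, 671 without HSD replicate 2, 320 without the pair, 56 to 671 without 1 library and 1081 with the block.

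Signs changed as follows, as log2 fold changes. Without ND replicate 1 and HSD replicate 2, the diet effect without ICH was -0.040 for Nfatc1 and 0.066 for Ppp3cb, and the difference of diet effects was 0.041 for Nr4a3 and -0.041 for Ppp3r1. Without the pair, the diet effect after ICH was 0.035 for Calm2, 0.024 for Nr4a2 and -0.048 for Ppp3r1, the effect of ICH on HSD was 0.070 for Rcan1, and the difference was 0.022 for Nr4a3 and -0.072 for Ppp3r1. With DESeq2 and RLE scaling Nr4a2 after ICH was 0.0045 and 0.0038, and with RLE scaling Rcan1 for ICH on HSD was 0.0225. The difference for Nfatc3 was 0.0061 with edgeR, 0.0035 with DESeq2 and 0.0031 with RLE scaling, and for Nr4a3 0.34, 0.36 and, with a pseudocount of 0.1, 0.14.

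Without 1 library at a time, the diet effect without ICH ranged from -0.0225 to 0.078 for Nfatc1, -0.048 to 0.083 for Ppp3cb, -0.020 to 0.087 for Ppp3r1 and -0.022 to 0.35 for Rcan1. After ICH it ranged from -0.25 to 0.21 for Calm2, -0.15 to 0.040 for Nr4a2 and -0.15 to 0.13 for Ppp3r1, and ICH on HSD from -0.19 to 0.19 for Rcan1. The difference ranged from -0.29 to 0.18 for Calm2, -0.14 to 0.045 for Calm3, -0.047 to 0.033 for Nfatc3, -0.35 to 0.26 for Nr4a3, -0.17 to 0.11 for Ppp3r1 and -0.049 to 0.32 for Rcan1. The cause of these changes was not tested.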

Other observations

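Calm2 and Ppp3r1, which both encode calcium-binding proteins that act on calcineurin, were high in the same pair of libraries, ND ICH replicate 2 (390.0 and 66.9 CPM) and HSD ICH replicate 3 (323 and 76.1 CPM). Over the 12 libraries with group means removed, their log2 levels had a Pearson r of 0.868, the highest of the 36 pairs among the 9 genes, and Ppp3r1 and Nfatc2 had the lowest, -0.861. These are descriptions of libraries that share depth and scaling. Calm3 and Rcan1 also ran against each other (-0.776).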
